A study of Bos taurus with 21 samples.

Results

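The genes described here encode proteins of the mitochondrial ribosome, apart from *MRPS36*, which shares the naming only. It stays in the counts of members unless said otherwise. Members were taken as all genes whose symbol begins with *MRPL* or *MRPS* followed by a digit. Symbols were found by matching the array's RefSeq transcript accessions to the cattle annotation. Of 78 such genes in the annotation, 75 had a matched probe, against 12538 genes named by a probe in all. The genes *MRPL36*, *MRPL40* and *MRPL55* were not analysed here. Each gene was measured by its brightest probe, although 127 probes matched the 75 genes. The brightest probes of all 75 were well above background on every array on which they had a value. An expression filter, which asked for a group mean above that of a typical array's median probe in at least 7 of the 8 groups, was passed by 74 members and by 7856 other genes. The member that did not pass was *MRPS9*, whose values ran from -0.74 to 0.61.

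Mitochondria carry their own ribosomes, which translate the small set of proteins encoded by mitochondrial DNA. Those proteins are core subunits of the respiratory chain and ATP synthase, so the complexes that hold them join products of both translation systems. The ribosome itself has a small subunit (*MRPS* genes), which holds the messenger RNA and reads its codons, and a large subunit (*MRPL* genes), which forms peptide bonds. All of its proteins are encoded in the nucleus and imported. Some descend from bacterial ribosomal proteins, and others have been added in mitochondria. Skeletal muscle is a tissue rich in mitochondria, and its oxidative capacity is built up around birth.

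RNA came from muscle of 21 bovine foetuses of 2 French beef breeds, the Blonde d'Aquitaine (BA, 10 foetuses) and the Charolais (CH, 11 foetuses). BA foetuses numbered 3, 2, 3 and 2 at 110, 180, 210 and 260 days post conception (dpc), and CH foetuses 2, 3, 3 and 3. No foetus received a treatment. Each was an animal of its own on its own single-colour array, with 2 sires per breed, 3 males and 7 females in BA and 5 males and 6 females in CH. The labels name the muscle *Longissimus thoracis* and the methods of the study *Semitendinosus*, which the data do not settle. Values are log2 intensities, scaled to the 75th percentile of each array, with a constant added so that 0 stands at the middle probe of a typical array. They can be compared between foetuses for a probe, but not between probes. Changes are log2 differences, with the standard error (SE) of the fit.

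The number of probes well above background ran from 29017 to 34501 over the arrays. The unscaled 75th percentile was 525 to 669 intensity units at 260 dpc and 646 to 1174 at the earlier stages, so the arrays of the last stage were among the dimmest. The arrays lay on 6 slides, and slides and stages overlapped only in part. Muscle markers of the sample were present. *CKM*, muscle creatine kinase, and *ACTA1*, skeletal actin, passed the filter and rose by 3.11 and 2.57 from 110 to 260 dpc.

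The RNA of the mitochondrial ribosomal proteins was higher near term than in mid-gestation. In bulk muscle, fewer cells of a type and less RNA per cell cannot be told apart. Averaged over the breeds, 54 of the 74 tested members were higher at 260 than at 110 dpc, 3 were lower and 17 passed in neither direction (limma, Benjamini-Hochberg adjusted p under 0.05 over 20132 probes). Of the other tested genes, 33.4% were higher and 31.8% were lower. The median change was 0.51 for the members, a 1.42-fold rise, and 0.03 for the other genes. In all, 69 of 74 members had a positive difference, against 51.9% of other genes. On the deposited values, which are not scaled between arrays, the median of the other genes moved by -0.36 and 10 members were higher and 4 lower, or 71.4% of calls higher against 94.7%. Of the other genes 12.4% were then higher and 39.9% lower, so that the members' higher calls were near the background and their lower calls below it. The excess of the members' median over that of the other genes was 0.48 there too. It could not differ, because scaling shifts all genes of an array alike. For median scaling (0.48) the same holds, apart from the filter. The excess was 0.42 under quantile normalization and 0.45 under normexp background correction.

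**Figure D1:**
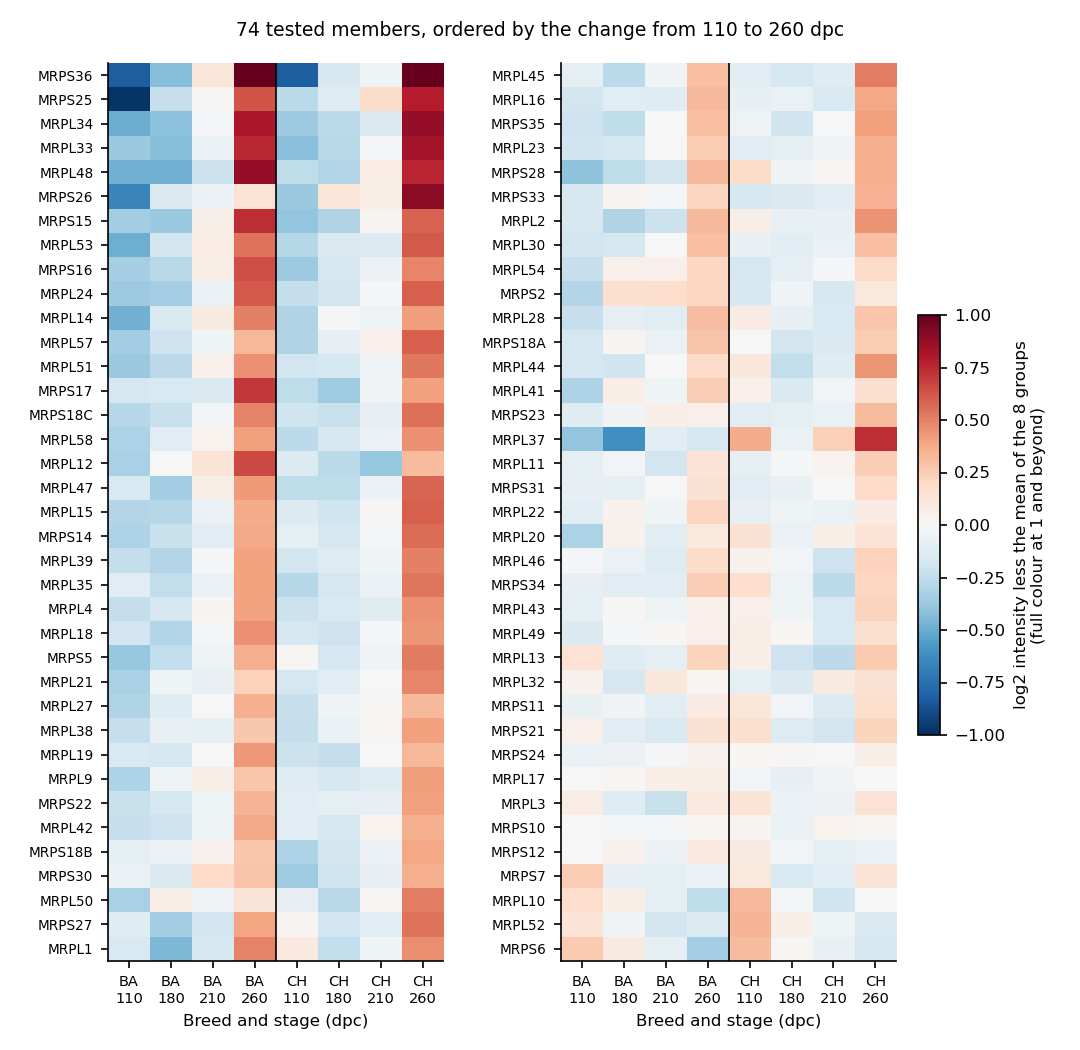
Mean log2 intensity of each of the 74 tested members in the 8 breed and stage groups, less the mean of the 8 groups, with genes ordered from the largest rise (top left, *MRPS36*) to the largest fall (bottom right, *MRPS6*) between 110 and 260 dpc. The columns at 260 dpc are the reddest in both breeds for most genes, and the last rows run the other way.

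The level was highest at 260 dpc in 68 of the 74 members (91.9%, against 41.9% of other genes). The exceptions were *MRPL10*, *MRPL52*, *MRPS6*, *MRPS7* and *MRPS12*, highest at 110 dpc, and *MRPL32*, highest at 210 dpc. The lowest level fell at 110 dpc in 36 members (48.6%), at 180 dpc in 23 (31.1%), at 210 dpc in 13 (17.6%) and at 260 dpc in 2 (2.7%). For the other genes these shares were 35.4%, 15.1%, 11.6% and 37.9%. All 5 foetuses at 260 dpc exceeded all 5 at 110 dpc for 43 members, where 25.7% of other genes separated that way. The reverse was seen for 2 members and 23.6% of other genes.

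Per foetus, the median of the members was set relative to each gene's mean over the breed and stage groups, with every group counting alike. At 110 dpc it lay between -0.22 and -0.11, at 180 dpc between -0.18 and -0.09, and at 210 dpc between -0.14 and 0.02. At 260 dpc it was 0.23 and 0.35 in BA and 0.17, 0.50 and 0.52 in CH. Every foetus at 260 dpc was above every younger foetus, whereas the 3 earlier stages overlapped. The same median over the other genes stayed between -0.04 and 0.04 on all 21 arrays. The spread was widest in CH at 260 dpc, with 1 of the 3 foetuses (replicate 1) below both BA foetuses.

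Most of the rise came in the last interval. From 210 to 260 dpc, 52 members rose and 0 fell (the other genes rose in 25% and fell in 21.8%), with a median change of 0.38 against 0.02. On the unscaled values this step gave 2 higher and 1 lower. No share of other genes for this step stands beside these 2 counts, so they were not read against a background. Over the whole period, 12.4% of other genes were higher and 39.9% lower on the unscaled values. From 110 to 180 dpc, 3 members rose and 2 fell, against 13.7% and 11.5% of other genes, and from 180 to 210 dpc 3 rose and 0 fell, against 4.86% and 5.03%. At an unadjusted p under 0.05 there were 11 members in the first step, with 36.5% of other genes, and 15 in the second, with 25.2% of other genes, so the members were below this background. Median changes in these steps were 0.01 and 0.09.

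The early movers were few. *MRPS36*, *MRPS26* and *MRPL14* rose in the first step by 0.53, 0.50 and 0.30, and *MRPL13* and *MRPL52*, of the large subunit, fell by 0.27 and 0.22. In the second step *MRPS15*, *MRPL33* and *MRPL34* rose by 0.38, 0.31 and 0.26. The change over the whole period and the last step share the arrays at 260 dpc, so their calls are not independent. Of the 54 members that rose over the whole period, 46 also rose from 210 to 260 dpc. A further 6 rose in that last step alone, *MRPL3*, *MRPL13*, *MRPL43*, *MRPL46*, *MRPS21* and *MRPS34*, which were chosen for mention after their values were seen. For *MRPS21* this holds for the brightest probe (0.35), while its 2 other probes had -0.077 and -0.11 in this step. *MRPL13* fell and then rose, so that its change over the whole period was 0.13 (SE 0.09, adjusted p = 0.222 in limma).

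Slides that held both 210 and 260 dpc allowed the last step to be read without a change of slide, with 1 array on each side. On slide 4 the median member was higher at 260 dpc by 0.31 in BA, with 67 of 74 positive, and by 0.50 in CH, with 69 of 74 positive. On slide 2 the CH pair differed by 0.24, with 57 of 74 positive. The other genes had medians between -0.02 and 0.02 in these 3 pairs, which the scaling of the arrays largely sets. No slide held 110 with 260 dpc for the same breed.

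**Figure D2:**
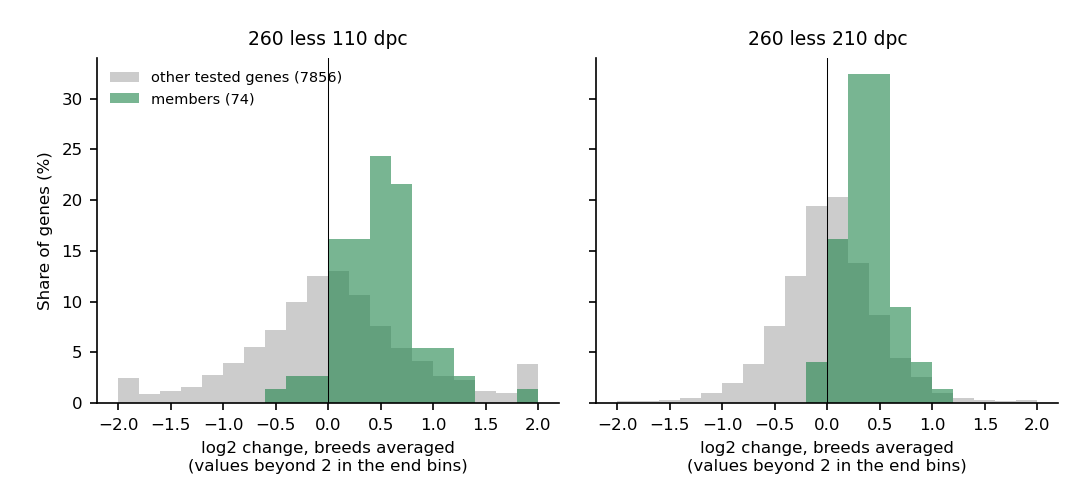
Share of genes (%) by log2 change, breeds averaged, for the 74 tested members (green) and the 7856 other tested genes (grey), from 110 to 260 dpc (left) and from 210 to 260 dpc (right). The grey genes spread evenly about 0, and the members lie to its right, with medians of 0.51 and 0.38.

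Both subunits took part. Of 48 tested members of the large subunit 36 rose and 2 fell, with a median change of 0.51. Of 25 of the small subunit 17 rose and 1 fell, with a median of 0.45. This grouping places *MRPS30* and *MRPS18A* in the large subunit, where structures have located their proteins despite their names, and leaves *MRPS36* out. Members with a bacterial counterpart rose in 31 of 45 cases and fell in 2, with a median of 0.49. Members found only in mitochondrial ribosomes rose in 22 of 28 and fell in 1, with a median of 0.51. These groups were not tested against each other.

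The largest rise bearing one of these symbols was that of *MRPS36*, whose product is now known as KGD4, a subunit of the 2-oxoglutarate dehydrogenase complex of the citrate cycle, and not a ribosomal protein. It measured 3.81, 3.94 and 3.96 in BA and 4.01 and 3.78 in CH at 110 dpc, and 5.74 and 5.84 in BA and 5.39, 6.15 and 5.95 in CH at 260 dpc. The stages were far apart, and the foetuses at 180 and 210 dpc, at 4.13 to 5.08, lay between them. The change was 1.91 (SE 0.13, a 3.76-fold rise, adjusted p = 1.83e-09 in limma).

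In the large subunit, *MRPL34* and *MRPL33*, counterparts of small bacterial proteins that bind ribosomal RNA, led. *MRPL34* was 2.73, 2.80 and 2.57 in BA and 2.84 and 2.82 in CH at 110 dpc. It was 4.10 and 3.90 in BA and 3.98, 4.22 and 4.01 in CH at 260 dpc. All 11 foetuses at 180 and 210 dpc were below 3.25, so most of the rise fell in the last step (0.93 of a total of 1.28, SE 0.08, adjusted p = 4.87e-10 in limma). A second probe of *MRPL34* gave 1.37. *MRPL33* was 4.39 to 4.64 at 110 dpc and 5.47 to 5.97 at 260 dpc, without overlap, a rise of 1.18 (SE 0.09). *MRPL48*, a protein added in mitochondria, rose by 1.18 (SE 0.16), and by 1.29 on its second probe. *MRPL53*, also specific to mitochondria, rose by 0.97 (SE 0.10), but by 0.32 on its second, dimmer probe.

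**Figure D3:**
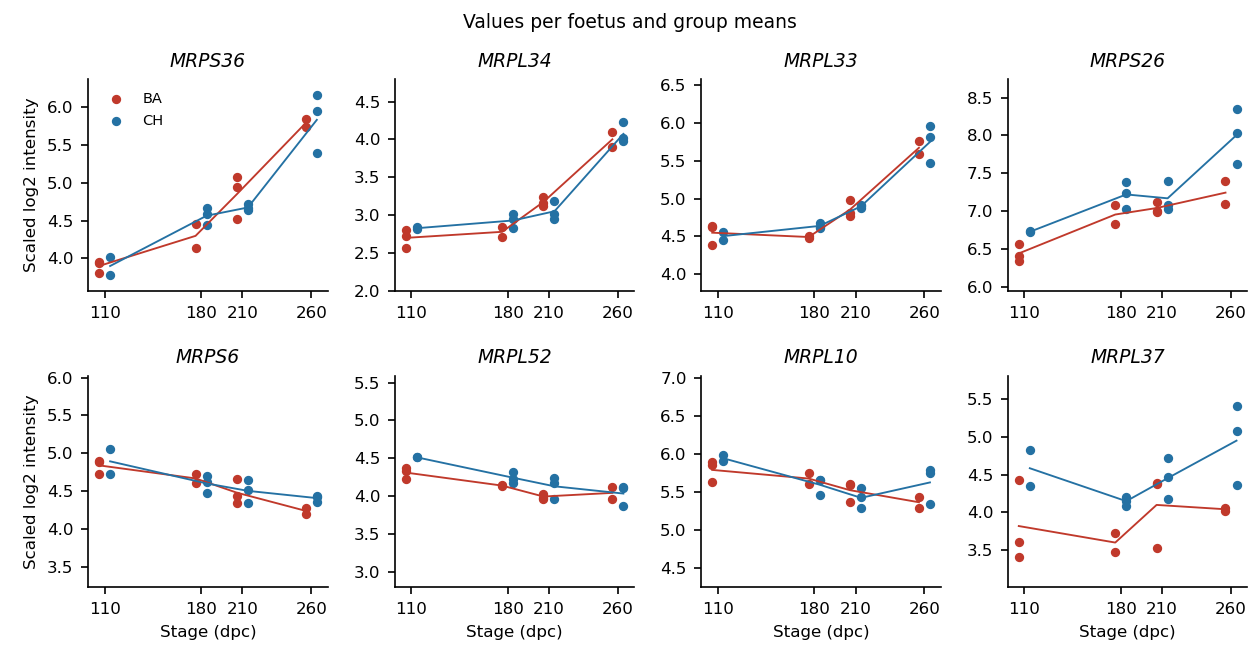
Scaled log2 intensity of 8 members against stage (days post conception). Points are foetuses, lines join the means of the groups of 2 or 3, and every panel spans the same range of log2 units. *MRPS36*, *MRPL34*, *MRPL33* and *MRPS26* climbed to 260 dpc, *MRPS6*, *MRPL52* and *MRPL10* went down (*MRPL10* did not pass under median scaling), and *MRPL37* was mostly higher in CH.

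Other members of the large subunit were described for their roles. *MRPL12*, the counterpart of the stalk protein that recruits translation factors, was 1.46 to 1.72 at 110 dpc and 2.65, 2.32, 1.68, 2.34 and 2.39 at 260 dpc. A single CH foetus (replicate 1) at 260 dpc overlapped the younger group, and the change was 0.72 (SE 0.16, adjusted p = 6.93e-04 in limma), although it did not pass with slide as a block (0.53, adjusted p = 0.0729). *MRPL45*, which helps to tether the ribosome to the inner membrane, rose by 0.51 (SE 0.09). *MRPL27*, placed near the site of peptide bond formation, rose by 0.60 (SE 0.11), but did not pass under quantile normalization (0.20, adjusted p = 0.051 in limma). *MRPL15* rose by 0.70 and *MRPL35* by 0.66, both as counterparts of bacterial proteins of the large subunit. *MRPS30* rose by 0.53 (SE 0.15).

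On the unscaled values *MRPL12*, *MRPL15*, *MRPL27*, *MRPL35*, *MRPL45* and *MRPS30* did not pass, with changes from 0.12 to 0.33. Smaller or less stable values were also those of *MRPS18A*, *MRPL44* and *MRPL41*. *MRPS18A*, a paralogue of the bacterial S18 protein built into the large subunit, rose by 0.36 (SE 0.11), with a value of -0.03 on the unscaled intensities and no call with slide as a block (adjusted p = 0.0706). *MRPL44*, related to RNase III enzymes, rose by 0.34 (SE 0.12), with -0.05 unscaled and 0.16 on its second probe. It did not pass in females alone (0.34), without BA 260 replicate 1 (0.28) or without CH 110 replicate 2 (0.23). *MRPL41* rose by 0.33 (adjusted p = 0.0389 in limma), but had a value of -0.18 under quantile normalization and of -0.06 unscaled, and did not pass with no filter, with slide as a block or in females alone. Its adjusted p without single arrays went as high as 0.23, reached when BA 260 replicate 2 was left out, and it also missed the threshold without BA 110 replicate 1, either CH 110 array, or CH 260 replicate 2 or 3. The probes of *MRPL41*, *MRPL27* and *MRPS26* were the brightest of the members, which does not rank their RNA.

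In the small subunit, *MRPS25* and *MRPS26*, both added in mitochondria, rose most. *MRPS25* was 0.88, 1.08 and 0.98 in BA and 1.58 and 1.80 in CH at 110 dpc, and 2.86 and 2.32 in BA and 2.37, 3.04 and 2.84 in CH at 260 dpc. The stages did not overlap, and the breeds stood apart at 110 dpc, although this difference was not called. The change was 1.33 (SE 0.19). *MRPS15*, the counterpart of a bacterial protein that binds early to the small subunit's RNA, was 4.83 to 5.12 at 110 dpc and 5.72 to 6.11 at 260 dpc, a rise of 1.03 (SE 0.09). *MRPS26* rose by 1.04 (SE 0.13), or by 0.59 under quantile normalization, and is described with the breeds.

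*MRPS18C*, the counterpart of bacterial S18 in the small subunit, rose by 0.76 (SE 0.08), and its paralogue *MRPS18B* by 0.54 (SE 0.10). *MRPS5*, at the entry of the messenger RNA channel, rose by 0.62 (SE 0.09). *MRPS28* rose by 0.45 (SE 0.15, adjusted p = 0.0132 in limma), and did not pass without BA 260 replicate 2 (0.29) or without CH 110 replicate 1 (0.37), nor with slide as a block (0.27), in females alone (0.47), under quantile normalization (0.20) or unscaled (0.06). *MRPS5*, *MRPS18B* and *MRPS18C* did not pass on the unscaled values, with 0.23, 0.15 and 0.37.

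*MRPS6*, *MRPL52* and *MRPL10* ran against the rest. *MRPS6*, the counterpart of a protein at the edge of the bacterial small subunit, was 4.73, 4.90 and 4.89 in BA and 4.73 and 5.06 in CH at 110 dpc. It was 4.20 and 4.28 in BA and 4.44, 4.36 and 4.42 in CH at 260 dpc. The groups did not overlap. It fell by 0.54 (SE 0.09, adjusted p = 4.67e-05 in limma), and its second probe by 0.41.

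*MRPL52*, specific to mitochondria, was 4.23 to 4.51 at 110 dpc and 3.87 to 4.12 at 260 dpc, again without overlap, and fell by 0.37 (SE 0.08, adjusted p = 3.64e-04 in limma). *MRPL10*, whose product anchors the stalk formed by *MRPL12*, was 5.86, 5.89, 5.63, 5.90 and 5.99 at 110 dpc and 5.29, 5.44, 5.34, 5.79 and 5.74 at 260 dpc. The highest 2 foetuses at 260 dpc, both CH, reached above the lowest at 110 dpc. *MRPL10* fell by 0.37 (SE 0.10, adjusted p = 0.00348 in limma) and by 0.31 on its second probe, and by 0.60 under quantile normalization, but was not called under median scaling (-0.27, adjusted p = 0.0574) or with slide as a block (-0.24, adjusted p = 0.220). Its partner *MRPL12* had the opposite sign.

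Members near 0 included *MRPS7*, in the head of the small subunit, with a change of -0.14 (SE 0.11), and *MRPS12*, at the decoding centre, with -0.03 (SE 0.10). *MRPS7* passed as lower on the unscaled values (-0.53), in female foetuses alone (-0.31) and without CH 260 replicate 2 (-0.24). *MRPS10*, a small subunit protein, differed by 0.01 (SE 0.09), *MRPL3*, close to the peptidyl transferase centre, by 0.02 (SE 0.10), and *MRPL17*, a large subunit protein, by 0.05 (SE 0.11). The values of *MRPS10* lay between 1.60 and 2.11 over all 21 foetuses. With limma, *MRPL20* narrowly missed the threshold (0.21, adjusted p = 0.0511). It passed under several alternatives and on its second probe, at 0.36 (adjusted p = 0.00313).

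Further probes gave a second reading of 36 members. Of 46 such probes that passed the filter, 42 had the sign of the brightest probe and 33 its call, and 0 were called in the opposite direction. For the other 13 only 1 of the 2 probes passed. The widest disagreement was at *MRPS21*, a small subunit protein, whose brightest probe changed by 0.08 (SE 0.12) while its 2 dimmer probes fell by 0.61 and 0.57. For *MRPL14* the brightest probe rose by 0.85, and the second had a change of 0.20 (adjusted p = 0.0536 in limma). With the second brightest probe wherever it passed the filter, 55 members rose and 4 fell.

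In each breed taken alone the direction was the same. In BA, 48 members rose from 110 to 260 dpc and 3 fell, against 28.3% and 25.8% of other genes, with a median of 0.51. In CH, 41 rose and 2 fell, against 27.4% and 26.1%, with a median of 0.47. On the unscaled values each breed had 4 higher and 2 lower. The shares of other genes within a breed are not given for this setting. With the breeds averaged, 12.4% of other genes were then higher and 39.9% lower. Of the 52 members that rose in at least 1 breed, 37 rose in both. Among the other genes 2220 rose in BA, 2155 in CH and 1803 in both, so most calls were shared there too. Across the 74 members the changes in BA and CH had a Pearson correlation of 0.87 and a Spearman correlation of 0.82, as a description, since genes are no replicates and share their arrays. Across the other 7856 genes Pearson's correlation was 0.92.

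The change from 110 to 260 dpc was called different between the breeds for 0 members and 0% of other genes (limma, smallest adjusted p among the members 0.661), and 1 member and 7.33% of other genes had an unadjusted p under 0.05. That member, *MRPL20*, changed by 0.43 (SE 0.12) in BA and by -0.02 (SE 0.12) in CH. It is a protein needed early in bacterial large subunit assembly. The next lowest p values belonged to *MRPL35*, with BA less CH at -0.31 (SE 0.16), and to *MRPS26*, at -0.48 (SE 0.25).

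Averaged over the stages, 0 members differed between BA and CH at an adjusted p under 0.05 in limma, against 0.407% of other genes. At an unadjusted p under 0.05 there were 9 members and 12% of other genes, shares close to each other. The median difference, BA less CH, was -0.04 for the members and -0.02 for the other genes, but its sign turned on the unscaled values (0.014 and 0.037), and it was -0.079 for the members under median scaling and -0.020 under quantile normalization. The difference was positive in 19 of 74 members (25.7%), against 43.5% of other genes. This lean was not uniform over the stages. At 110, 180, 210 and 260 dpc, 17, 28, 44 and 24 members were positive. Of the other genes 41.5%, 50.1%, 46.5% and 49.3% were positive at these stages. At single stages 0 members were called, against 0.242% of other genes at 110 dpc, 0.0255% at 180 dpc and 0% at 210 and at 260 dpc. At an unadjusted p under 0.05 there were 6, 0, 2 and 4 members at the successive stages, beside 12%, 6.36%, 5.51% and 5.7% of other genes, none of which the members' shares exceeded. Per foetus, the members' median at 110 dpc was -0.22, -0.16 and -0.22 in BA and -0.12 and -0.11 in CH, without overlap. At the 3 later stages the breeds overlapped.

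The lowest p values of the average breed difference were those of *MRPS26* and *MRPL37*, both with an adjusted p of 0.0894. *MRPS26* was 6.34, 6.41 and 6.57 in BA and 6.73 and 6.72 in CH at 110 dpc. At 260 dpc it was 7.09 and 7.39 in BA and 7.63, 8.35 and 8.04 in CH. The breeds did not overlap at these 2 stages, whereas at 180 dpc BA had 6.83 and 7.08 beside 7.03 to 7.39 in CH, and at 210 dpc 6.99 to 7.12 beside 7.03 to 7.40. The difference was -0.36 (SE 0.09), and it passed when CH 260 replicate 1 was left out (-0.41, adjusted p = 0.0265 in limma).

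*MRPL37*, a large subunit protein specific to mitochondria, was 4.02 and 4.06 in BA and 5.08, 4.36 and 5.40 in CH at 260 dpc. At 110 dpc BA had 3.42, 4.43 and 3.61 beside 4.82 and 4.35 in CH, so that 1 BA foetus reached into the CH range. The brightest probe gave -0.64 (SE 0.16), and passed without BA 110 replicate 2 (-0.72) or without CH 260 replicate 2 (-0.72). The second probe of *MRPL37* gave a breed difference of -0.01 (SE 0.07), and a rise of 0.76 from 110 to 260 dpc where the brightest probe had 0.29 (adjusted p = 0.268). The breed difference of *MRPL37* was thus seen on 1 of its 2 probes.

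The other named differences were smaller. *MRPS28* had -0.26, *MRPS5* -0.16, *MRPL20* -0.14 and *MRPL15* -0.14, with adjusted p from 0.296 to 0.383. *MRPL12* was the highest on the side of BA, at 0.23 (SE 0.11, adjusted p = 0.391), and at 0.40 (adjusted p = 0.143 in limma) on its second probe. For *MRPL20* the BA foetuses at 110 dpc, at 5.48, 5.59 and 5.59, were below both CH foetuses, at 5.96 and 6.10. From 180 dpc on, the breeds overlapped for this gene.

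Single arrays of both breeds on the same slide did not give a steady sign. At 260 dpc the median member differed, BA less CH, by 0.17 on slide 2, with 59 of 74 positive, and by -0.20 on slide 4, with 16 of 74 positive. The other genes had 0.04 and -0.02 in these pairs. At 210 dpc the members had -0.06 on slide 4, where the other genes had -0.05, and 0.07 on slide 6, where they had -0.0039. On slide 3 the members had -0.05 at 110 dpc and -0.02 at 180 dpc, and the other genes -0.02 and 0.0020.

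The rest of the mitochondrial translation machinery was read from lists of named genes. A list of mitoribosomal proteins with other symbols also held *OXA1L*, which is not itself a ribosomal protein. Of its genes 4 of 6 rose and 0 fell, with a median change of 0.30 from 110 to 260 dpc. Under quantile normalization 2 rose, and unscaled 0 rose with a median of -0.09. *OXA1L*, which inserts newly made proteins into the inner membrane and sits at the ribosome's exit, rose by 0.58. *GADD45GIP1* and *AURKAIP1*, of the large and the small subunit, rose by 0.47 and 0.23.

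The list of translation factors also held *LETM1*, which is not one. In this list 9 of 11 tested genes rose and 0 fell (on the unscaled values, 1 rose and 1 fell). The median was 0.55, the value of *LETM1* itself. Those that rose were the elongation factors *GFM1* (0.90), *TUFM* (0.49) and *TSFM* (0.46), and the initiation factor *MTIF3* (0.46). The release and recycling factors *MTRF1* (0.72), *MRRF* (0.69) and *GFM2* (0.56) also rose, with *GUF1* (0.66), a GTPase that acts on translating ribosomes, and *LETM1* (0.55), a membrane protein of ion exchange. *MTRF1L* and *MTFMT*, at -0.13 and -0.002, did not pass. *MTIF2* and *TACO1* did not pass the filter. The mean over all 13 genes ran from 1.62 to 1.85 per foetus at 110 dpc, and the 5 foetuses at 260 dpc, at 2.16 to 2.45, were all higher.

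Assembly factors were mixed. Of 21 tested, 7 rose and 5 fell, with a median of 0.12 (0 rose and 6 fell unscaled, and the median was -0.01 under quantile normalization). The 3 with the lowest p fell, *RPUSD4*, a pseudouridine synthase, by 0.52, *MPV17L2* by 0.52 and *MTERF4*, a partner of a ribosomal RNA methyltransferase, by 0.55. Mitochondrial aminoacyl-tRNA synthetases, which charge transfer RNAs, rose in 5 of 12 cases and fell in 0, with a median of 0.21 (-0.18 and 1 in each direction unscaled). *IARS2* rose by 1.02, *RARS2* by 0.33 and *NARS2* by 0.32.

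Genes of mitochondrial transcription and RNA handling rose in 7 of 14 cases and fell in 2, with a median of 0.42 (2 in each direction unscaled, 9 and 1 under median scaling and 8 and 1 with normexp). The transcription elongation factor *TEFM* rose by 1.04, *HSD17B10*, a subunit of mitochondrial RNase P, by 0.87, and *MTERF2* by 0.83. Of 7 nuclear transcription factors and coactivators of mitochondrial genes, 2 rose and 2 fell (3 and 3 under quantile normalization, 3 and 1 under median scaling). *ESRRA*, a nuclear receptor of energy metabolism, rose by 1.52 and its coactivator *PPARGC1A* by 1.37, whereas the related coactivator *PPRC1* fell by 0.99.

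**Figure D4:**
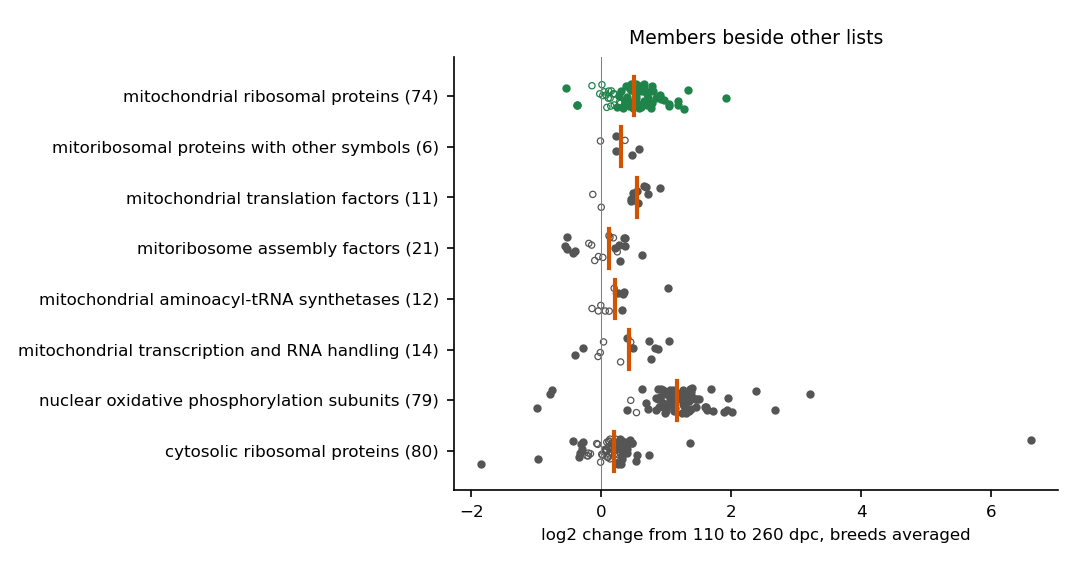
Log2 change from 110 to 260 dpc, breeds averaged, for each tested gene of 8 lists (number of genes in brackets). Filled points passed at an adjusted p under 0.05 in limma, open points did not, vertical offsets within a list carry no value, and orange bars are list medians. The members' median of 0.51 lies between 1.17 for the oxidative phosphorylation subunits and 0.20 for the cytosolic ribosomal proteins, whose median was -0.30 under quantile normalization and -0.19 unscaled.

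Beside the members, the nuclear subunits of oxidative phosphorylation moved further. Of 79 tested, 74 rose and 3 fell, with a median of 1.17. Succinate dehydrogenase subunits *SDHB* and *SDHD* rose by 2.38 and 1.47, and *COX7A1*, the muscle isoform of a cytochrome oxidase subunit, by 3.21. Cytosolic ribosomal proteins had a median of 0.20, and 27 of 80 rose and 8 fell, but 2 rose and 61 fell under quantile normalization, 2 and 13 on the unscaled values, and 40 and 3 under median scaling. Their direction thus rested on the scaling. The split of the members was 49 to 3 under quantile normalization, 59 to 2 under median scaling and 10 to 4 unscaled. Of all genes other than the members, 29.1%, 37.8% and 12.4% were higher in these settings, and 36.9%, 26% and 39.9% were lower. These shares moved with the scaling too. *RPL3L*, a muscle paralogue of *RPL3*, rose by 6.61, *RPS27L* rose by 1.37 and *RPL3* fell by 1.85.

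Markers of other cell types and states changed over the same period. Skeletal muscle markers rose in 6 of 8 cases and fell in 1 (*MYOG*, a factor of early differentiation, by 0.78), and their mean went from 8.10 to 9.13 at 110 dpc to 9.77 to 10.04 at 260 dpc. Fibroblast and matrix markers fell in 7 of 8 cases, with means of 7.07 to 8.01 and 6.30 to 6.98 at these stages, and *FN1*, fibronectin, fell by 1.52. Erythroid markers fell in 3 of 4 tested cases, namely the globins *HBA*, *HBB* and *HBG*. *ALAS2*, *HBM* and *SLC4A1* did not pass the filter.

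Leukocyte markers rose in 1 and fell in 3 of 6 tested cases (0 and 3 unscaled, 2 and 3 under median scaling), with means of 1.56 to 2.73 at 110 dpc and 1.63 to 2.08 at 260 dpc. Endothelial markers rose in 3 and fell in 1 of 7 (0 rose and 2 fell unscaled), with means of 3.12 to 3.42 and 3.13 to 3.51. Schwann cell markers rose in 4 of 5 tested cases, with means of 1.99 to 2.39 and 2.63 to 3.53. Of the adipocyte list 2 genes were tested. *LPL* rose by 3.97, and *FABP4*, at 1.42 (SE 0.88), did not pass (adjusted p = 0.170 in limma). The list had means of -1.81 to 0.22 and -0.05 to 1.87. Of 6 proliferation markers with a probe, *PCNA* alone passed the filter and fell by 0.61, and the list had means of 2.16 to 2.43 and -0.49 to 0.27. The part of these cell types in the rise of the mitochondrial ribosomal proteins was not tested.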

How the data were processed

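RNA of 21 foetuses was measured on single-colour bovine arrays. The authors made the intensity values of the scanner files with Agilent Feature Extraction 10.7 (per the labels). The methods of the study report normalization within and between arrays. The 75th percentile of these intensities still ran from 525 to 1174 over the arrays, so they are called unscaled here. The authors' deposited value table holds the log2 of these intensities, and 649643 of its 649670 values were within 0.01 of the log2 intensity computed from the scanner files. It entered as an alternative only.

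Left out were the control spots and 258 values that carried an outlier mark. No spot was saturated. Replicate spots were reduced to their mean. Each array's 75th percentile was subtracted from its log2 intensities and a constant of 2.69 was added. Probes with a group mean above 0 in at least 7 of 8 groups were tested (20132 of 43653). *MRPS17* lacks 1 value, of BA 210 replicate 3, and its fit used 20 arrays. Probes were named through RefSeq accessions and the ARS-UCD2.0 annotation. Positions are not given because the design of the array used a different assembly.

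A limma model (limma 3.58.1, R 4.3.3, data.table version 1.17.8, jsonlite 2.0.0) held 1 mean for each of the 8 breed and stage groups, with 13 residual and 3.79 prior degrees of freedom. The threshold was 0.05 after Benjamini-Hochberg adjustment over all tested probes. The script was tested on simulated data. The number of foetuses per group limits the precision.

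The members and lists were chosen with earlier results of these data known. The text names the 8 members with the largest rise and the 8 with the lowest change (5 of them below 0), the 3 brightest, the 6 and the 3 with the lowest p for the breed difference and for its change with stage, the 1 under the filter, 9 chosen for their roles, and at most 3 genes of another list, by p, besides translation factors. *MRPL13*, *MRPL14*, *MRPL32*, *MRPL43*, *MRPL46*, *MRPS21*, *MRPS34* and the genes of other lists named for a small count were added after their values were seen. The alternatives were quantile normalization, median scaling, normexp (offset 50), the deposited unscaled values, no filter, a detection filter, sex as a covariate, slide or replicate number as a block, female foetuses alone, a trended robust variance, 1 probe per gene, the second probe, and each array left out in turn.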

Additional observations from a re-analysis of the deposited data

How the results depend on the processing

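The count of members higher at 260 than at 110 dpc stayed between 43 and 59 under 12 of the 13 alternatives. Leaving out single arrays is not among these 13. Of the other genes, 24.7% to 37.8% were higher under those 12. On the deposited unscaled values 10 members and 12.4% of other genes were higher. There the median of the other genes moved by -0.36, and the members' median change was 0.12. On these values 0 members changed from 110 to 180 dpc, 0 from 180 to 210 dpc and 3 from 210 to 260 dpc. In each breed 6 changed from 110 to 260 dpc. These step and breed counts have no share of other genes beside them. The median change was 0.35 under quantile normalization and 0.61 under median scaling. *MRPL41* turned to -0.18 under quantile normalization and to -0.058 on the unscaled values, where *MRPS18A* had -0.031 and *MRPL44* -0.047, and none of these 4 values passed.

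The few calls of the early steps were unstable. From 110 to 180 dpc, 5 members were called, and 3 under median scaling, the detection filter, sex as a covariate, the slide block and females alone, and 2 with no filter. From 180 to 210 dpc, 3 were called, and 6 under quantile normalization and with the second probe, 1 under median scaling, normexp and no filter, and 0 with the slide block and in females alone. With single arrays left out these counts ran from 2 to 7 and from 1 to 7. The last was reached without CH 260 replicate 1, and the 1 without either BA 180 array, BA 210 replicate 1, CH 180 replicates 1 or 3, or CH 210 replicates 2 or 3. The first step gave 2 or 3 without any of BA 110 replicates 1 and 2, both BA 180 arrays, BA 210 replicate 1, both CH 110 arrays and CH 180 replicates 2 and 3.

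With single arrays left out, 48 to 56 members were higher and 3 to 4 lower at 260 than at 110 dpc, 44 to 56 changed from 210 to 260 dpc, 35 to 54 changed in BA and 38 to 50 in CH, and the median change was 0.46 to 0.56. The count of members differing between breeds, stages averaged, was 0 to 1, with the 1 reached without BA 110 replicate 2, CH 260 replicate 1 or CH 260 replicate 2, and the median breed difference -0.07 to -0.02. At single stages, and for the breed difference in stage change, the count stayed at 0. A lone array left in a group was assumed to vary like the other groups.

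Replicate numbers do not pair the foetuses. Arrays of different groups with the same number had a median correlation of group-centred values of 0.01 over 66 pairs, and others of -0.01 over 126. With the replicate block 55 members were higher and 3 lower, beside 33.6% and 31.8% of other genes. Slides and stages overlapped only in part, and the slide block gave 43 members higher and 2 lower, beside 27.6% and 23% of other genes. The planned promoter search was not run. The number of foetuses, 2 or 3 per group, limits the breed comparisons.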
